A study of Homo sapiens with 12 samples.

Results

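The cytosolic ribosomal protein genes are the genes for the proteins of the large (RPL, RPLP) and small (RPS, RPSA) subunits of the ribosome that translates messenger RNA in the cytosol. Membership was set by symbol. Among current human gene symbols, 77 matched. Of these, 64 had a probe set that the platform annotation assigns to that gene only, out of 18132 genes with such a probe set: 41 of the large and 23 of the small subunit. Another 4 (RPS26, RPL17, RPS12 and RPL36A) lay only on probe sets that name several genes and were left out, and the other 9 were not analysed here. Each of the 64 was represented by its brightest single-gene probe set, and all 64 passed the filter on low signal (at least 100 on at least 3 arrays, or 2 for the fits on replicates 2 and 3).

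The arrays were Affymetrix PrimeView arrays, which read 3′ ends of transcripts with sets of short probes, and 12 were used. They came from MUM2B and OCM1, both labelled as human uveal melanoma cell lines (melanoma of the pigmented layer of the eye), either wild type or overexpressing CANT1, a long noncoding RNA transcribed from the CASC15 locus. Each of the 4 groups (MUM2B wild type, MUM2B CANT1, OCM1 wild type, OCM1 CANT1) had 3 arrays. Replicate 1 of every group carries a growth label naming puromycin selection of the CANT1 cells, and replicates 2 and 3 carry one naming medium with 10% FBS, so each group is divided into sets of 1 and 2 arrays. Wild type cells are the controls in both sets and no empty vector is described, so effects of CANT1, of vector and of selection cannot be told apart. The labels do not say whether replicates are separate cultures or whether the CANT1 cells are a clone or a pool, so p-values reflect array-to-array spread only, possibly of technical origin. Levels are log2 of scaled signal plus 32, differences are on that log2 scale, and ± is the standard error of a difference from limma or, where SD is written, a standard deviation.

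Ribosomal proteins are made in equal numbers, assembled with ribosomal RNA in the nucleolus by a large set of assembly factors, and exported as subunits. Their messenger RNAs are among the most abundant of a growing cell, and nearly all begin with a 5′ terminal oligopyrimidine (TOP) tract, a C followed by an unbroken run of C and T, through which mTOR signalling and the binding protein LARP1 set how actively they are translated. Output is therefore often changed at translation rather than at the level of messenger RNA, and arrays see only the latter.

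The tracts are visible at the start sites annotated by RefSeq (GRCh38.p14). Of the 64 measured genes, 54 had an entry in the promoter table used. In 41 of 54 (75.9%) the first transcribed base was a C followed by at least 4 pyrimidines at one or more annotated starts, against 1402 of 27195 genes (5.16%) over the whole table. Allowing such a tract to begin up to 5 bases before or after the start, 48 of 54 (88.9%) had one, against 25.2%. The windows below run from 10 bases before the annotated start to 20 bases from it, written 5′ to 3′ on the gene's own strand, with the tract in capitals. They were chosen because the results turn on these genes: RPL27A and RPL35A for the CANT1 comparison, RPL13, RPL36, RPL18, RPL26, RPL14 and RPS27 for the lines, RPLP2, RPS6 and RPS19 as members of the stalk and the small subunit, and RPL4 and RPS29 as contrasting starts.
RPL27A (chr11:8682782-8682811, plus strand): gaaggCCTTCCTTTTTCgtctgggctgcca
RPL35A (chr3:197950180-197950209, plus strand): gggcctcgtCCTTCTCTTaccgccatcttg
RPL13 (chr16:89560672-89560701, plus strand): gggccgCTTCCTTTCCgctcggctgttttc
RPL36 (chr19:5690285-5690314, plus strand): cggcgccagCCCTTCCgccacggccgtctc
RPL18 (chr19:48619159-48619188, minus strand): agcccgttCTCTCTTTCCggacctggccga
RPL26 (chr17:8383174-8383203, minus strand): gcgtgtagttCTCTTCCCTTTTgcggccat
RPL14 (chr3:40457329-40457358, plus strand): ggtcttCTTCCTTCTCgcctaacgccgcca
RPS27 (chr1:153990752-153990781, plus strand): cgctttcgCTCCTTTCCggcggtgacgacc
RPLP2 (chr11:809957-809986, plus strand): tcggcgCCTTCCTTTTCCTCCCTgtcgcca
RPS6 (chr9:19380217-19380246, minus strand): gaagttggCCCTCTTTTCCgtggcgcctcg
RPS19 (chr19:41860245-41860274, plus strand): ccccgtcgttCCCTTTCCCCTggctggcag
RPL4 (chr15:66504836-66504865, minus strand): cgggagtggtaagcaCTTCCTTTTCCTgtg
RPS29 (chr14:49598691-49598720, minus strand): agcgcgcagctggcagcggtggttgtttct
The capitals of RPL27A and RPL35A span 12 and 9 pyrimidines. Both runs begin before the annotated start, so the part within a message that begins there is shorter. The tract of RPL4 begins after the annotated start, and RPS29 shows none in this window. In the 300 bases from 250 before to 50 after the start, read on both strands, CCGGAA was found in 31 of 54 measured members (57.4%) and 20.1% of all genes, AAGATGGCG in 5 (9.26%) and 2.14%, CACGTG in 4 (7.41%) and 8.79%, and TATAAA in 4 (7.41%) and 14%. CCGGAA and AAGATGGCG share letters and can overlap. A match describes the letters only.

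Before any result, the quality of the arrays needs stating. The wild type OCM1 replicate 1 array stood apart. Over all 18132 genes with a single-gene probe set, unfiltered, its mean correlation with the other arrays of its line was 0.897, against 0.962 to 0.986 for the other 11. Its 7 melanocyte markers (MITF, PMEL, MLANA, TYR, TYRP1, SOX10 and S100B) had a summed signal of 14170, against 76430 to 81870 in the OCM1 CANT1 arrays and up to 77380 in the other wild type OCM1 arrays. All 7 reached a signal of 100 on every array of OCM1. In MUM2B only 3 of 7 did, with sums of 519.9 to 707.6 in wild type cells, and MLANA and TYRP1 were as low as a signal of 36.3 and 19, while the keratins KRT8, KRT18 and KRT19 were 1.51 to 6.47 log2 units higher than in OCM1 in wild type cells of replicates 2 and 3, so the melanocyte identity labelled for MUM2B is not visible in these defining markers. Summed endothelial markers were 2795 to 5110 in MUM2B and 431 to 551.7 in OCM1, fibroblast markers 268.4 to 371.5 and 372.3 to 1717, and no immune marker of 4 reached 100 on all arrays of a group. The MUM2B endothelial sum came mostly from CDH5 (up to 4634). The OCM1 fibroblast sum came, outside wild type replicate 1, mostly from LUM (up to 1437). TEK, COL1A1, COL1A2 and DCN reached 100 on no array, nor did the epithelial markers EPCAM and CDH1. No marker was at 0, and the part of these marker differences in the results was not tested. The 3′ to 5′ ratio of the ACTB control probe sets was 2.15 to 2.51 log2 units on the replicate 1 arrays and 0.47 to 0.91 on the others. Each array was scaled to a common level, so a shift of all RNA could not have been seen, and in bulk RNA a change in the share of cells and in RNA per cell cannot be told apart.

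By the brightest probe set of each gene, ribosomal protein messages varied less over the 12 arrays than most genes. The range from the lowest to the highest array had a median of 0.44 log2 units over the 64 genes and stayed under 0.5 in 39 and under 1 in 58, while over all 12715 tested genes the median range was 1.28. The 95 other measured probe sets of these genes had a median range of 0.88. The 49 measured probe sets with a mean signal under 8000, brightest of their gene or not, had one of 1.46. By the brightest, the smallest range was 0.14 and the largest 2.41, for RPL27A. On each array, 38 to 57 of the 64 read more than 50% of the signal of that array's brightest probe set, so these probes worked near the top of the scale, where differences may be compressed, which was not tested. Together the 64 probe sets held 8.01% to 9.59% of the summed gene signal. Both of those extremes were replicate 1 arrays of OCM1, CANT1 and wild type, and the 8 arrays of replicates 2 and 3 lay between 8.75% and 9.27%.

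**Figure D1:**
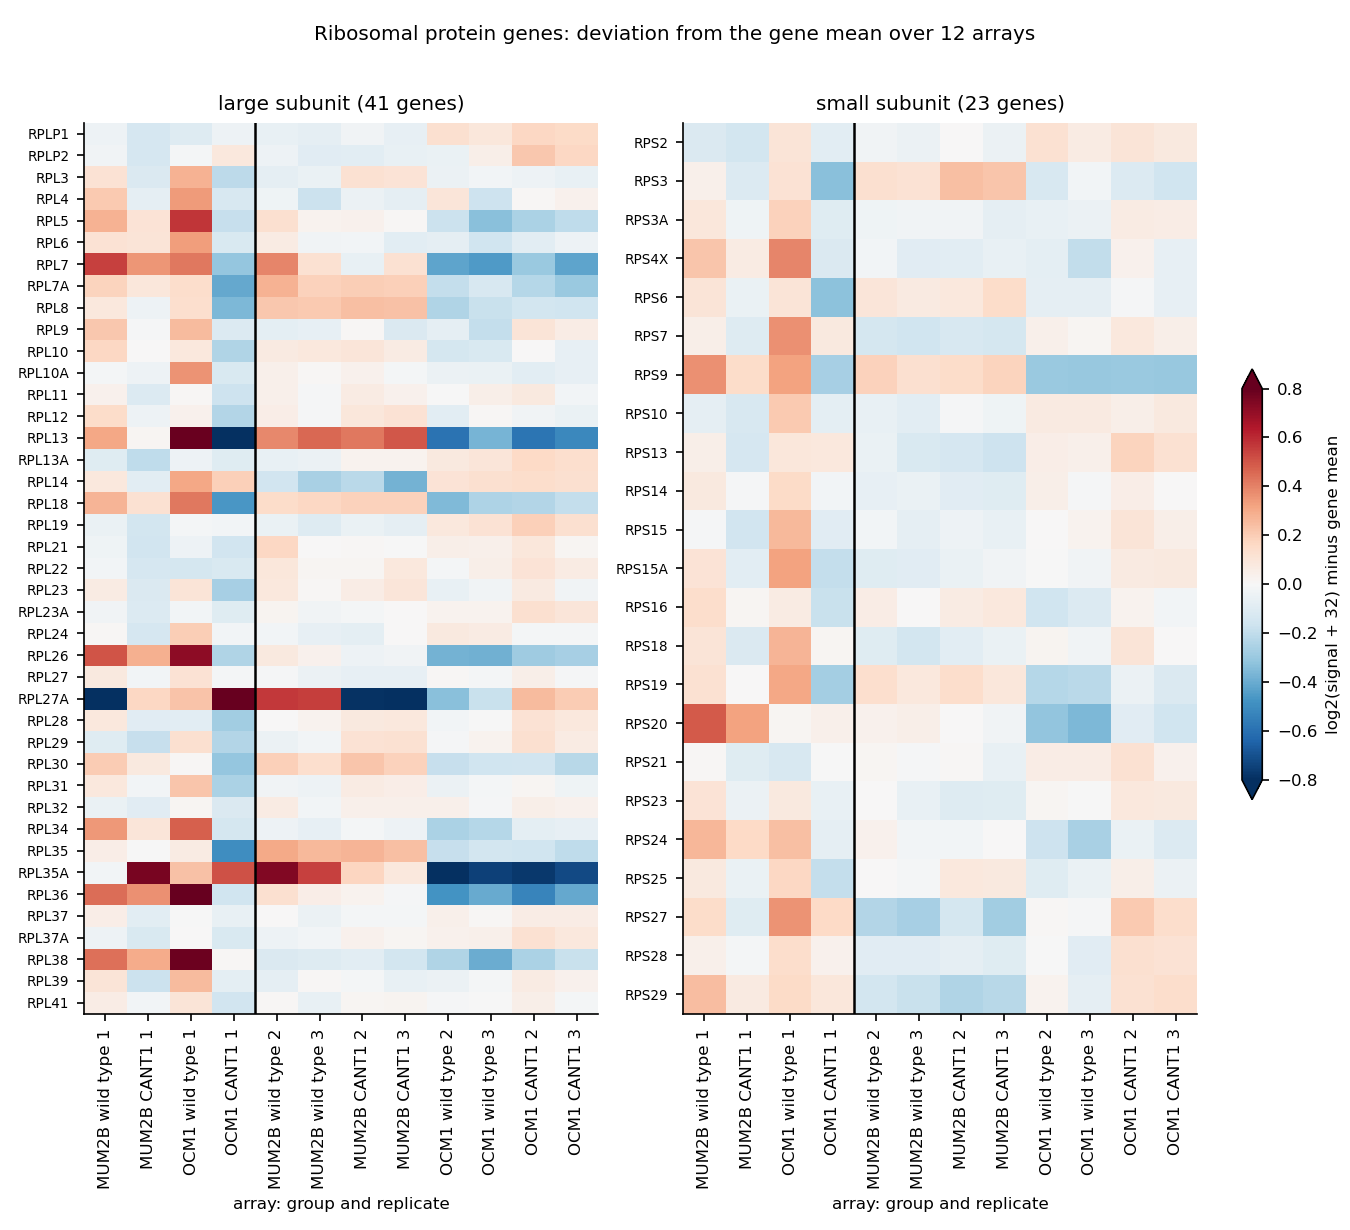
Heat map of 64 ribosomal protein genes (rows, by subunit) on 12 arrays (columns; replicate 1 left of the black line). Colour is the log2 level minus the gene's mean over the arrays, with colour limits of ±0.8, and the wild type OCM1 replicate 1 column is above the gene's mean in 54 of 64 rows.

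On replicates 2 and 3, CANT1 cells of MUM2B and wild type cells differed in 2 of 64 members, both lower (RPL27A and RPL35A, limma adjusted p under 0.05), where 24.8% of 12371 tested genes were called, 10.5% of them down and 14.4% up. The median difference over the members was 0.0066, against 0.0051 over all genes. The median standard error of a member was 0.088, and 2 such errors come to 0.18. In OCM1, 1 of 64 was called (RPL27A, higher), where 23.6% of all genes were called. There 51 of 64 members lay above zero with a median of 0.058 (all genes 0.039, with 57.1% above zero), but this lean depended on scaling: the median was 0.012 after quantile normalization and 0.0033 on the deposited values, with 36 and 35 members above zero. With an intensity trend in the variance model 10 members were called in OCM1, all higher, and 4 in MUM2B. The share of all genes called under that model is not given here.

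Among the members named for their roles, none of these passed with replicates 2 and 3. RPLP1 and RPLP2 are the acidic proteins of the stalk that recruits translation factors. CANT1 minus wild type was 0.017 ± 0.087 for RPLP1 in MUM2B (limma adjusted p = 0.918) and 0.046 ± 0.087 in OCM1 (adjusted p = 0.75), and for RPLP2 −0.0052 ± 0.090 and 0.20 ± 0.090 (adjusted p = 0.976 and 0.143). The level of RPLP2 was 14.58 and 14.68 in wild type OCM1 and 14.85 and 14.80 in CANT1 OCM1, where the arrays did not overlap. RPL5 and RPL11 bind 5S ribosomal RNA and restrain MDM2, the ligase that degrades p53. RPL5 was at −0.057 ± 0.096 and 0.024 ± 0.096 (adjusted p = 0.72 and 0.89), and RPL11 at 0.035 ± 0.090 and 0.0065 ± 0.090 (adjusted p = 0.827 and 0.971). The message for RPL11 was level over all 12 arrays, between 14.66 and 14.90.

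In the small subunit, RPS6, the substrate of the S6 kinases, was 0.030 ± 0.088 higher in CANT1 MUM2B and 0.033 ± 0.088 higher in CANT1 OCM1, neither of which passed (limma adjusted p = 0.849 and 0.833). RPS19, needed for small subunit maturation and mutated in Diamond-Blackfan anaemia, was at 0.0068 ± 0.089 and 0.14 ± 0.089 (adjusted p = 0.969 and 0.288). None of the 23 small subunit genes was called in either line, and 2 of 41 large subunit genes were in MUM2B and 1 of 41 in OCM1. Counting arrays that did not overlap, CANT1 was higher in 16 and lower in 11 members in MUM2B, where 32.3% and 29.8% of all genes did the same, and higher in 35 and lower in 3 in OCM1, where 36.2% and 26.7% did.

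RPL27A, a protein of the large subunit, was the member that moved most, as read by a single dim probe set. On replicates 2 and 3 its level was 8.63 and 8.62 in wild type MUM2B and 7.27 and 7.26 in CANT1 MUM2B, a difference of −1.36 ± 0.093 (limma adjusted p = 2.5e-05). The scaled signals were 364 and 360 in wild type and 122 and 121 in CANT1. In OCM1 it was 7.72 and 7.88 in wild type and 8.32 and 8.26 in CANT1, a rise of 0.49 ± 0.093 (adjusted p = 0.0036). The lines therefore moved in opposite directions, with no overlap between the arrays of either. In the test of OCM1 minus MUM2B effects, 2 of 64 members were called, both higher, where 22.2% of genes were called. RPL27A was at 1.85 ± 0.13 (limma adjusted p = 1.8e-05) and passed in all 17 alternatives that measured it. On replicate 1 the level was 6.93 in wild type and 8.23 in CANT1 MUM2B, and 8.29 and 9.34 in OCM1, so CANT1 was higher in both lines by 1.29 and 1.05. The effect on replicate 1 exceeded that on replicates 2 and 3 by 2.65 ± 0.16 in MUM2B (limma adjusted p = 1.4e-05) and by 0.57 ± 0.16 in OCM1 (adjusted p = 0.013), with the single replicate 1 arrays assumed to vary like the others. RPL27A had a single probe set with a scaled signal of 90.1 to 617 over the arrays, so no second probe set could check it, and it was the only member to fall out when the signal minimum was raised to 400. Its mean signal was 264, against 3530 for the next dimmest chosen probe set (RPL35A) and a median of 26250 over the chosen probe sets. Whether this probe set reads the main RPL27A message was not tested, so its differences may not be those of that message.

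RPL35A, a large subunit protein also mutated in Diamond-Blackfan anaemia, was the other call. Its level was 12.43 and 12.24 in wild type and 11.86 and 11.77 in CANT1 MUM2B of replicates 2 and 3, a difference of −0.52 ± 0.098 (limma adjusted p = 0.0042). In OCM1 it was 10.89 and 10.94 against 10.92 and 10.97, which overlap, a difference of 0.029 ± 0.098 (adjusted p = 0.870). The difference between the lines' effects was 0.54 ± 0.14 (adjusted p = 0.017), a call lost when any of wild type MUM2B replicate 2, CANT1 MUM2B replicate 3, wild type OCM1 replicate 2 or CANT1 OCM1 replicate 3 was left out (adjusted p = 0.0720, 0.0572, 0.0555 and 0.0583) and with the mean over probe sets (0.16, adjusted p = 0.321). A dimmer probe set of RPL35A was lower in both lines, at −0.31 in MUM2B and −0.37 in OCM1, where the brightest gave 0.029. On replicate 1 CANT1 minus wild type was 0.78 in MUM2B and 0.28 in OCM1 by the brightest probe set, and 0.12 and −0.35 by the dimmer. In MUM2B the effect on replicate 1 minus that on replicates 2 and 3 was 1.30 ± 0.17 (limma adjusted p = 0.000235), under the same assumption.

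**Figure D2:**
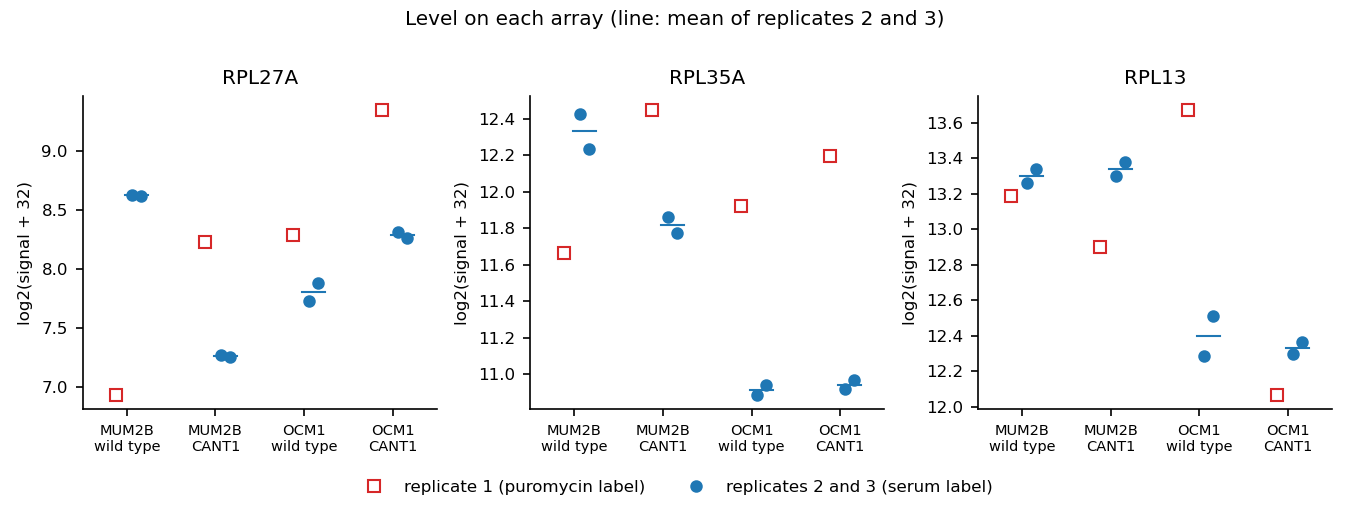
Level of RPL27A, RPL35A and RPL13 on each array (y axis, log2 of signal plus 32) in the 4 groups, with replicate 1 marked apart from replicates 2 and 3. RPL27A goes from 8.63 and 8.62 to 7.27 and 7.26 with CANT1 in MUM2B on replicates 2 and 3, and from 6.93 to 8.23 on replicate 1.

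The set on replicate 1 has 1 array per group, so it was not tested, and its values are given as a description. In MUM2B 62 of 64 members were lower and 2 higher in CANT1 (60.2% and 39.8% of all genes), with a median of −0.13 against −0.072 over all genes, and all 23 small subunit genes were lower. In OCM1 57 of 64 were lower (56.8% of all genes), with a median of −0.29 against −0.051. Past 0.5 log2 units in either direction lay 2 members in MUM2B, both higher (RPL27A and RPL35A), where 21.1% of genes did and 9.63% were lower, and 15 in OCM1, 14 lower and 1 higher (RPL27A), where 43.3% did and 24% were lower. After quantile normalization 41 and 47 of 64 were lower, with medians of −0.038 and −0.176. RPLP1 and RPLP2 were among the 7 higher in OCM1, at 0.060 and 0.10.

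The effect on replicate 1 minus that on replicates 2 and 3 was fitted over all 12 arrays. Its spread comes from replicates 2 and 3 alone, which correlated at 0.996 to 0.997 within a group against 0.888 to 0.983 for replicate 1 with either, so its p-values assume that single arrays of replicate 1 vary as little. That was not tested, and the calls describe these arrays rather than the labelled conditions. In MUM2B only RPL27A and RPL35A were called, both higher on replicate 1, where 36% of genes were called. In OCM1, 31 of 64 members were called, 30 lower and 1 higher (RPL27A), and 48.5% of all genes were, 27.8% lower, so the share called was that of all genes. The largest were RPL13 (−1.54 ± 0.18, limma adjusted p = 2.5e-05), RPL36 (−1.10 ± 0.16), RPL26 (−1.06 ± 0.15), RPL18 (−0.97 ± 0.16), RPL38 (−0.88 ± 0.16) and RPL7 (−0.81 ± 0.20). RPL5 (−0.78 ± 0.17), RPS19 (−0.72 ± 0.15) and RPS6 (−0.46 ± 0.15) were among them. RPL13, a large subunit protein, read 13.67 in wild type OCM1 replicate 1 and 12.07 in CANT1 OCM1 replicate 1, while replicates 2 and 3 lay between 12.29 and 12.51 in both states. The high array was the wild type one, which is the array that stood apart, and its part in these differences was not tested. The count was 16 after quantile normalization or on the deposited values, and it also fell without CANT1 OCM1 replicate 2 or wild type OCM1 replicate 3. The shares of all genes called in those fits are not given here.

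**Figure D3:**
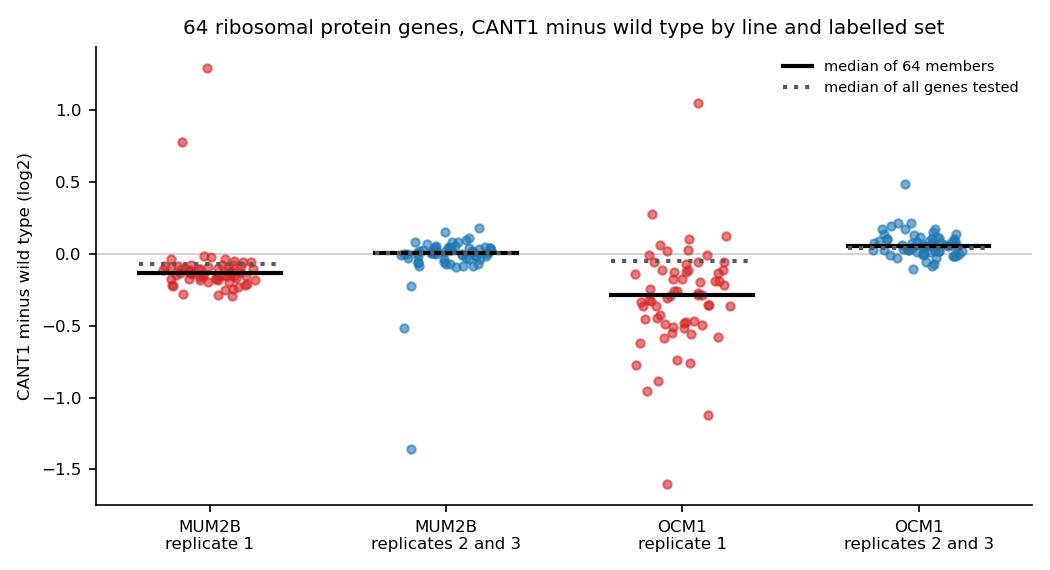
CANT1 minus wild type (log2, y axis) of 64 ribosomal protein genes in each line and labelled set, 1 point per gene, with solid bars for the members' median and dotted bars for that of all genes tested. On replicates 2 and 3 points crowd at zero except RPL27A (both lines) and RPL35A (MUM2B), and on OCM1 replicate 1 the median is −0.29.

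With all 12 arrays and the labelled set as a term, no member passed in MUM2B, in OCM1 or in the difference of the lines. Of all genes 0% were called by limma in MUM2B, 0.173% in OCM1 (0.0315% lower) and 0.0472% in the difference (0.00786% lower), so these counts say little about the members. At an unadjusted p under 0.05 stood 219, 1176 and 633 of 12715 genes and none of the 64 members. The smallest p-values in OCM1 belonged to RPL7A (−0.25 ± 0.12), RPL13 (−0.58 ± 0.31) and RPL36 (−0.39 ± 0.22) among those lower, and RPLP2 (0.16 ± 0.091), RPS20 (0.15 ± 0.098) and RPL27A (0.68 ± 0.49) among those higher. In MUM2B they were RPL7 (−0.22 ± 0.17), RPL14 (−0.12 ± 0.10) and RPS13 (−0.10 ± 0.093) among those lower and RPL29, RPL3 and RPL31 (0.027 to 0.073) among those higher. The medians were −0.041 in MUM2B and −0.064 in OCM1, and the latter became 0.021 without wild type OCM1 replicate 1. Leaving out wild type MUM2B replicate 1 alone made RPL27A pass, in MUM2B and in the difference (1.99, limma adjusted p = 0.018).

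The lines themselves were compared with the same wild type arrays that serve the CANT1 comparisons. In wild type cells of replicates 2 and 3, 17 of 64 were called, 2 higher and 15 lower in OCM1, where 64.2% of all genes were called, 34.9% higher and 29.3% lower. RPL14 (0.32 ± 0.095, limma adjusted p = 0.011) and RPS27 (0.25 ± 0.092, adjusted p = 0.034) were higher in OCM1. RPS27 lost its call when any of the 4 wild type arrays was left out (adjusted p = 0.0784 to 0.122) and on the deposited values (adjusted p = 0.0807), and RPL14 without wild type MUM2B replicate 3 (adjusted p = 0.0767). The lower ones were led by RPL35A (−1.42 ± 0.098, adjusted p = 1.5e-07), RPL13 (−0.90 ± 0.10), RPL27A (−0.82 ± 0.093), RPL7 (−0.69 ± 0.11), RPL36 (−0.53 ± 0.093) and RPL18 (−0.46 ± 0.090), with RPS9, RPL35, RPL26, RPL8, RPL7A, RPS20, RPL30, RPS19 and RPL5 between −0.46 and −0.33. Of the lower ones, RPS19 lost its call with the mean over probe sets (−0.061, limma adjusted p = 0.483). RPL5 lost its call without wild type MUM2B replicate 2 (−0.28) and without wild type OCM1 replicate 3 (−0.25). The median over the members was −0.024, against 0.065 over all genes. RPL13 read 13.26 and 13.34 in wild type MUM2B and 12.29 and 12.51 in wild type OCM1 on those arrays. On replicate 1, with 1 array each, it was 13.19 and 13.67, and 45 of 64 members were higher in OCM1 (median 0.069), where 50.5% of all genes were. The OCM1 array there is the one that stood apart, and its part in this was not tested. Past 0.5 there lay 2, RPL27A (1.36) and RPL36 (0.52), where 45.6% of genes did.

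With 12 arrays, 2 members passed between wild type lines, RPS20 (−0.41 ± 0.098, limma adjusted p = 0.010) and RPL7 (−0.50 ± 0.17, adjusted p = 0.044), where 33.2% of genes were called. The call for RPL7 was kept in only 9 of 23 alternatives (limma adjusted p up to 0.153). Without the wild type OCM1 replicate 1 array 14 members passed, all lower in OCM1, and with other single arrays left out 1 to 4 did. Between CANT1 lines 9 passed, where 37.5% of genes did: RPL14, RPS27 and RPS13 higher, and RPL13, RPL7, RPL7A, RPL35, RPS9 and RPL30 lower in OCM1. That count was 16 without wild type OCM1 replicate 1 and 1 without CANT1 MUM2B replicate 3. For neither comparison is the share of all genes called with an array left out given here. Over all 6 arrays of each line, RPL14 and RPL19 were higher and RPL30 lower in OCM1 without overlap, against 13.7% and 9.71% of genes. RPL14 ran from 14.10 to 14.56 in MUM2B and from 14.58 to 14.78 in OCM1, RPL19 from 14.69 to 14.79 and from 14.82 to 15.03, and RPL30 from 14.77 to 14.92 and from 14.38 to 14.71. RPL19 did not pass any of the line comparisons by limma.

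Lists of other genes of ribosome synthesis, chosen like the members with earlier results of these data known, were read beside the ribosomal proteins. Of 39 tested assembly factors, 28 were lower in CANT1 MUM2B on replicates 2 and 3 and none higher (median −0.385; 10.5% of all genes were lower), and in OCM1 15 were lower and 1 higher (median −0.216; 9.52% lower). The largest falls in MUM2B were RRS1 (−0.84 ± 0.13), GRWD1 (−0.84 ± 0.14), NOP56 (−0.74 ± 0.13) and NOP58 (−0.69 ± 0.11), of which NOP56 and NOP58 are core proteins of the box C/D particles that methylate ribosomal RNA. In OCM1 they were BOP1 (−0.71 ± 0.12), GNL2 (−0.51 ± 0.099), MRTO4 (−0.50 ± 0.12) and UTP20 (−0.50 ± 0.10). BOP1 and PES1 belong to a complex that processes large subunit RNA. Lower in both lines were 10 factors (BOP1, MRTO4, NLE1, NOP14, NOP16, PES1, RPF2, RRP1, UTP20 and WDR43), 35.7% of those called in MUM2B and 66.7% of those in OCM1. The share of all genes lower in both lines is not given here. Whether these 10 exceed the overlap that the counts of each line alone would give was not tested, so they are not read as a shared response.

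These counts changed when single arrays were left out. The shares of all genes called in those refits are not given here, so the changes cannot be set against them. In MUM2B 12 were lower without wild type replicate 2 and 14 without CANT1 replicate 3. In OCM1 3 were without wild type replicate 3, 5 without CANT1 replicate 2, 6 without wild type replicate 2 and 9 without CANT1 replicate 3, although the median stayed between −0.305 and −0.201. On replicate 1 the factors went the other way, with 33 of 39 higher in CANT1 MUM2B (median 0.43), where 39.8% of all genes were. In CANT1 OCM1 25 of 39 were higher (median 0.22), where 43.2% of all genes were. The effect on replicate 1 minus that on replicates 2 and 3 in MUM2B was called for 29 of 39, all higher, where 17.9% of genes were called higher. In OCM1 it was called higher for 17 and lower for 6, where 20.7% and 27.8% of genes were. That comparison includes the wild type OCM1 replicate 1 array that stood apart. BOP1 read 12.02 and 11.71 in wild type and 11.38 and 11.22 in CANT1 MUM2B of replicates 2 and 3, but 9.50 and 10.95 on replicate 1.

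On replicates 2 and 3, of 14 genes of RNA polymerase I, which makes ribosomal RNA, 6 were lower in CANT1 MUM2B, where 10.5% of all genes were (POLR1G, POLR1A, POLR1E, UBTF, POLR1B and POLR1F, from −0.63 to −0.40) and 3 higher in CANT1 OCM1, where 14.1% were (POLR1B, TAF1C and TAF1B, from 0.39 to 0.63). On replicate 1, 9 of the 14 were higher in CANT1 MUM2B (median 0.27), where 39.8% of all genes were. In CANT1 OCM1 10 were lower (median −0.25), where 56.8% of all genes were. The level of POLR1B there went from 9.01 in wild type to 9.56 in CANT1 MUM2B, and from 10.39 to 10.46 in OCM1. On replicates 2 and 3 POLR1B moved in opposite directions in the lines, at −0.42 and 0.63. Fewer passed here too when some single arrays were left out, and the shares of all genes called in those refits are not given here. Of 19 other translation genes with TOP messages, 1 rose on replicates 2 and 3 in MUM2B (EIF4B, 0.33 ± 0.11), where 14.4% of all genes did. In OCM1, 1 fell (EEF1B2, −0.29 ± 0.087), where 9.52% did. On replicate 1 EIF4B went the other way, at 13.01 in wild type and 12.40 in CANT1 MUM2B. EEF1B2 was again lower there, at 14.38 in wild type and 13.45 in CANT1 OCM1.

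Of 16 regulators on replicates 2 and 3, 2 were called in OCM1, where 23.6% of all genes were. In MUM2B 4 were called, where 24.8% of all genes were, so the shares were near or under those of all genes. MYC, a transcription factor that drives ribosome synthesis, fell in OCM1 (−0.77 ± 0.11, limma adjusted p = 0.00052). Its level went from 13.51 and 13.48 to 12.67 and 12.78, and RPS6KB1, an S6 kinase, was higher (0.59 ± 0.092). In MUM2B RPTOR (−0.57 ± 0.15), YY1 and EIF4EBP2 were lower and SP1 higher (0.46 ± 0.12). Replicate 1 did not show these differences. There MYC read 13.00 in wild type and 12.99 in CANT1 OCM1, and RPS6KB1 11.61 and 9.68. In MUM2B RPTOR read 8.37 and 9.04, YY1 12.31 and 12.75, EIF4EBP2 9.19 and 9.39, and SP1 9.83 and 9.28. All but MYC went in the opposite direction. Of 6 tested paralogs of ribosomal proteins, RPL39L rose (0.53 ± 0.11) and RPL26L1 and RPL7L1 fell (−0.53 ± 0.099 and −0.52 ± 0.11) in MUM2B, and RPL22L1 fell in OCM1 (−0.36 ± 0.10), again on replicates 2 and 3. That was 3 of 6 in MUM2B and 1 of 6 in OCM1, where 24.8% and 23.6% of all genes were called. On replicate 1 RPL26L1 read 11.59 in wild type and 12.21 in CANT1 MUM2B, and RPL7L1 10.41 and 11.09, both in the opposite direction, while RPL39L (11.39 and 11.70) and, in OCM1, RPL22L1 (13.84 and 12.96) moved the same way. Between wild type lines on replicates 2 and 3, 26 of 39 assembly factors were lower in OCM1 and 1 higher, where 29.3% and 34.9% of all genes were, led by RRS1 (−2.28 ± 0.13). With all 12 arrays, no gene of these lists passed for CANT1 in either line.

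**Figure D4:**
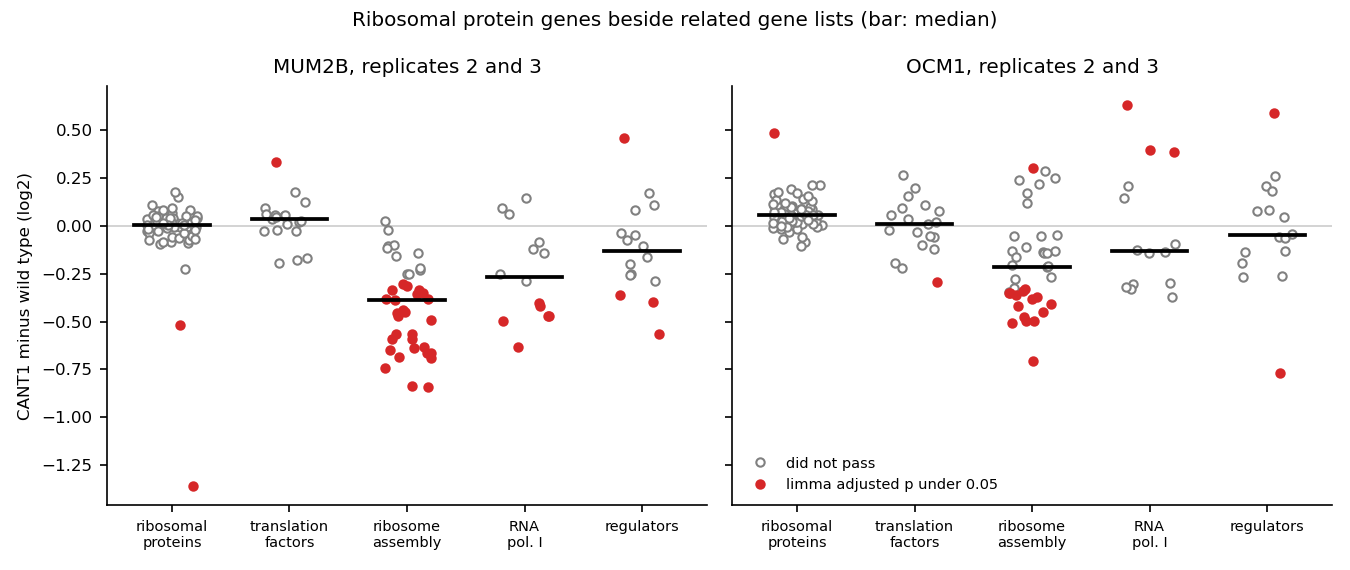
CANT1 minus wild type (log2, y axis) on replicates 2 and 3 for 64 ribosomal protein genes and 4 related lists, in MUM2B (left) and OCM1 (right), with genes that passed limma at an adjusted p under 0.05 in red and bars at the medians. The bar of the assembly factors lies at −0.385 and −0.216, that of the ribosomal proteins at 0.0066 and 0.058.

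Probe sets of the same gene did not always give the same answer. Of the 64 members, 48 had more than 1 measured single-gene probe set, 159 in all. The dimmest had a larger range over the 12 arrays than the brightest in 43 of 48. Measured probe sets with a mean signal under 8000 had a median range of 1.46 log2 units (49 probe sets) and those at or above 8000 one of 0.443 (110). Directions differed within a gene in 26 of 48 members for CANT1 in MUM2B and 23 of 48 in OCM1 on replicates 2 and 3, and in 18 of 48 between the wild type lines. The median spread between the probe sets of a gene was 0.15 in MUM2B, 0.12 in OCM1 and 0.32 between the lines.

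The widest spread in MUM2B, 1.31 log2 units, was that of RPS14. This gene, for a small subunit protein encoded in the region of chromosome 5 that is lost in the 5q- syndrome, was at −0.036 in MUM2B and 0.0100 in OCM1 by its brightest probe set, and at −1.35 and −0.98 by its dimmest, which read 2652 on average. RPS29 was at −0.068 in MUM2B by its brightest probe set and at 0.72 by its dimmest. RPS25 was at 0.084 and, by its dimmest probe set, at −0.36. RPL31 was at 0.094 in MUM2B by its brightest and between −0.12 and 0.62 over its 5 measured probe sets, 1 of which ranged over 6.12 log2 units. RPL37A was at 0.069 between the wild type lines by its brightest and at −1.44 by another. Ribosomal protein genes have many processed pseudogenes, and 34 of the 64 chosen probe sets end in _x_at and 21 in _s_at, the maker's marks for probes that may match other sequences, so members are uncertain where such copies are expressed. Restricting the choice to other probe sets, which not every member had, raised the members called on replicates 2 and 3 from 2 to 10 in MUM2B and from 1 to 5 in OCM1. The share of all genes called with that choice is not given here.

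**Figure D5:**
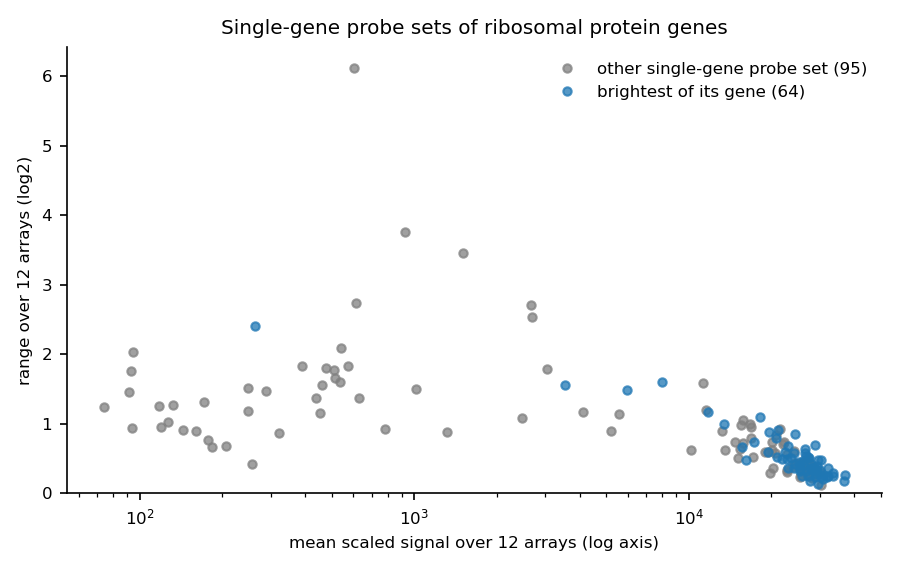
Range over 12 arrays (log2, y axis) against mean scaled signal (x axis, log scale) for 159 measured single-gene probe sets of ribosomal protein genes, the brightest of each of 64 genes coloured apart from the other 95. The range is 1.46 in the median under a signal of 8000 and 0.443 above it.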

How the data were processed

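PrimeView arrays (12, labelled cRNA from total RNA) were used. The deposited values were read as log2 signals because of their range of 0 to about 15. MAS5 is named per the submitters' processing notes, and its version, the log base and any further normalization by the authors are not given in the sources used here. The deposited log2 values were made linear, scaled per array to a 2% trimmed mean of 500, and put back on a log2 scale after adding 32. Of 49395 probe sets, 102 were controls, 44988 named 1 gene, 1832 several and 2473 none, and 44961 were matched to current symbols by gene ID. The brightest single-gene probe set stood for each gene.

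limma 3.58.1 in R 4.3.3 was fitted over all genes past the filter, with Benjamini-Hochberg adjustment and a threshold of 0.05. It was fitted to all 12 arrays with the labelled set as a term (7 residual degrees of freedom) and to replicates 2 and 3 (4 residual degrees of freedom), and differences between sets used 1 mean per group and set. The code was tested on simulated data. Named were up to 6 called members in each direction, otherwise the 3 smallest p-values in each direction, members with set roles, the 5 members whose probe sets differed most, and up to 4 called genes of each list. The members and lists were chosen with earlier results of these data known. Alternatives were another normalization, offsets of 8 and 128, no filter or a minimum of 400, the mean over probe sets, no _x_at or _s_at probe sets, no set term, a replicate block, only the arrays compared, an intensity trend and each array left out. Promoter sequences came from RefSeq. Probe sets naming several genes were left out. The number of arrays limits the precision.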

Additional observations from a re-analysis of the deposited data

Results flagged for a closer look

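The effect of CANT1 differed between the lines in 2 of 64 members on replicates 2 and 3, by the limma test of that difference, which called 22.2% of all genes: RPL27A, at 1.85 (OCM1 minus MUM2B), and RPL35A, at 0.54. The effect on replicate 1 minus that on replicates 2 and 3 was called by limma for some members, with the spread taken from replicates 2 and 3 and the single arrays of replicate 1 assumed to vary as little, which was not tested. In MUM2B 2 of 64 members were called, against 36% of all genes, RPL27A at 2.65 and RPL35A at 1.30. In OCM1 31 of 64 were called, and 48.5% of all genes were, so the share was that of all genes. RPL27A was higher there, at 0.57, and the other named members were lower on replicate 1: RPL13 at −1.54, RPL36 at −1.10, RPL26 at −1.06, RPL18 at −0.97, RPL38 at −0.88, RPL7 at −0.81, RPL5 at −0.78, RPS19 at −0.72, RPL31 at −0.50, RPS6 at −0.46 and RPS25 at −0.43. Replicate 1 has 1 array per group, and the OCM1 wild type array among them is the one with the lowest correlation with its own line (0.897).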

How the results depend on the processing

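Over 3559 values of named genes under an alternative, 3319 kept direction and side of the threshold, 111 lost the call, 35 gained it, 15 reversed and 79 untested values moved. Of 260 counts and medians, 63 moved, as follows, and the cause was not tested. The shares of all genes called under these alternatives are not given here.

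For CANT1 in MUM2B on replicates 2 and 3, members called were 1 with the minimum of 400, 5 with the mean over probe sets, 10 without _x_at and _s_at probe sets and 4 with the intensity trend, with medians of −0.027 (mean) and −0.060 (no _x_at or _s_at). In OCM1 they were 0, 3, 5 and 10 in that order, with medians of 0.012 (quantile), 0.0033 (deposited values), 0.033 (mean) and 0.022 (no _x_at or _s_at). For the difference of effects they were 1 (minimum of 400), 5 (no _x_at or _s_at) and 6 (trend), with medians of 0.0022 (quantile), 0.0042 (deposited) and 0.084 (no _x_at or _s_at). Between wild type lines they were 34 with the mean and 34 with the trend, with medians of −0.055 (quantile), −0.065 (deposited), −0.133 (mean) and −0.407 (no _x_at or _s_at).

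For the set difference in MUM2B, 8 (mean), 11 (no _x_at or _s_at) and 13 (trend) were called, with medians of −0.045 (quantile), −0.041 (deposited), −0.075 (mean) and −0.086 (no _x_at or _s_at). In OCM1 16 (quantile), 16 (deposited) and 17 (no _x_at or _s_at) were called, with medians of −0.201, −0.262, −0.450 (mean) and −0.545 (no _x_at or _s_at). Alternatives on replicate 1, chosen after seeing the data, gave medians of −0.038 (quantile), −0.057 (deposited) and −0.106 (mean) in MUM2B and −0.176, −0.231 and −0.448 in OCM1. Between lines they gave 0.038 (quantile) and 0.170 (mean) for wild type and −0.151 (mean) for CANT1.

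With 12 arrays, the median for CANT1 in OCM1 was −0.198 without _x_at and _s_at probe sets. Between wild type lines 5 (quantile), 4 (the larger offset), 5 (mean), 0 (no set term), 1 (only the arrays compared) and 6 (trend) members were called. Between CANT1 lines 14 (mean), 4 (no set term) and 18 (only the arrays compared) were, with medians of −0.128 (mean) and −0.302 (no _x_at or _s_at).

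The replicate numbers were not used to pair the samples in the main fits. Same-numbered arrays deviated with correlations of −0.127 to 0.218 over replicates 2 and 3. Over all 3 replicates these were 0.034 to 0.623, all positive, though not every pair exceeded 0.1. Replicate 1 is also a labelled set of its own, so there a pairing by number and the set cannot be told apart. With the replicate block 1 member was called between wild type lines and 5 between CANT1 lines on 12 arrays, and no other count of members moved by over 1.5 times.

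Leaving out 1 array gave, on 12 arrays, 0 to 1 called and medians of −0.063 to −0.00045 in MUM2B, 0 and −0.10 to 0.021 in OCM1, 0 to 1 and −0.072 to 0.059 for their difference, 1 to 14 and −0.062 to 0.033 between wild type lines, and 1 to 16 and −0.078 to 0.054 between CANT1 lines. On replicates 2 and 3 it gave 2 and −0.012 to 0.021 in MUM2B, 1 and 0.043 to 0.066 in OCM1, 1 to 2 and 0.031 to 0.064 for their difference, and 15 to 17 and −0.036 to −0.015 between wild type lines. For the set difference it gave 2 and −0.153 to −0.113 in MUM2B and 18 to 31 and −0.403 to −0.346 in OCM1.

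Values that reversed came with the choice of probe sets. With the mean, RPL37A was at −0.52 between CANT1 lines and −0.42 between wild type lines (replicates 2 and 3), RPS29 at 0.24 in MUM2B, RPS14 at −0.62 in OCM1, −0.67 between wild type lines and 2.23 for the set difference in MUM2B, and RPS25 at 0.36 for that in OCM1. Without _x_at and _s_at probe sets, RPL37A was at −1.17 and −1.44, RPS29 at 0.72 in MUM2B and −0.63 for the difference of effects, RPS14 at −0.98, −1.18 and 3.50, and RPL31 at −0.95 between wild type lines. The median of all genes moved between −0.128 and 0.123 over the alternatives.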
